A study of Mus musculus with 212 samples.

Results

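The 59 LXS strains with a column in the miRNA tables were split by their level of miR-5121, a small RNA annotated as a microRNA on mouse chromosome 7. The groups were chosen by the value of miR-5121 itself: the 33 strains at or below 5.96 in the variance-stabilized table (a log2-like scale) are called low strains and the 26 above it high strains. LXS strains are recombinant inbred mice derived from a cross of ILS and ISS mice, inbred lines with long and with short sleep after ethanol, so each strain is fixed for one parental allele at most loci. All mice of both groups were untreated, and RNA was taken from the right hemisphere of the brain and size-selected for small RNA sequencing. The labels give no sex or age. Each strain has 2 to 7 labelled libraries but 1 value per feature in the deposited tables, so the strain is the replicate, its own error is unknown, and so is the read depth behind it.

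MicroRNAs are short RNAs cut from a hairpin precursor and loaded into Argonaute proteins, which they guide to messages that pair with their seed, bases 2 to 8. Box C/D small nucleolar RNAs (snoRNAs), many of them encoded in introns of ribosomal protein genes, guide ribose methylation of ribosomal RNA and carry a conserved box C that contains the letters UGAUGA. The gene Mir5121 stands where both classes meet. In RefSeq (GRCm38.p6) it lies inside Rpl13a, which encodes a protein of the large ribosomal subunit, and 4 snoRNA genes lie within the span of that host gene. All 21 bases of the mature miR-5121 fall within the span of Snord33. The snoRNA genes of Rpl13a are, in the annotated order, Snord35a, Snord34, Snord33 and Snord32a, and they are followed by Flt3l, Aldh16a1, Pih1d1 and Slc17a7.

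The mature sequence of miR-5121 is shown with that of its precursor, because the split rests on it, and with the sequences of the 3 features of the same chromosome that the results below turn on and for which RefSeq gives one. Sequences are from RefSeq, 5′ to 3′; capitals mark the seed, and in the hairpin they mark the mature miRNA.
miR-5121, chr7:45126925-45126945, minus strand: aGCUUGUGaugagacaucucc
Mir5121 hairpin, chr7:45126918-45126991, minus strand: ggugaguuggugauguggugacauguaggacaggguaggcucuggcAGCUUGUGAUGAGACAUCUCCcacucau
miR-7057-5p, chr7:66381702-66381719, minus strand: cAGGAGAGgacucaaguu
miR-9769-3p, chr7:30552871-30552892, plus strand: uAGGGUCUguucuguguccucc
miR-211-5p, chr7:64205831-64205852, plus strand: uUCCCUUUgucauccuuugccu
No other mature mouse miRNA in the RefSeq table had the seed of miR-5121. The mature miR-5121 holds UGAUGA from its base 7, on the strand shown; 12 of 1679 mature miRNA names in the table (0.715%) hold these letters. A match of letters is a description only.

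In the low strains the normalized signal of miR-5121 ran from 0.957 to 7.24 with a median of 2.47. In the high strains it ran from 12.2 to 60.5 with a median of 20.3. The ratio of these medians was 8.21; it describes the split, which was made on this feature, and was not tested. On the variance-stabilized scale the low strains lay between 4.64 and 5.79 (median 5.03) and the high strains between 6.13 and 7.81 (median 6.82). The last strains inside the low group were LXS39 at 5.65, LXS84 at 5.77 and LXS86 at 5.79. The first above the threshold were LXS90 at 6.13, LXS101 at 6.33 and LXS122 at 6.52.

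The gap at the threshold, 0.34, was little wider than the widest gap elsewhere in the ranking, 0.30. On log2(normalized signal + 1) the widest gap gave the same 33 and 26 strains. On the linear scale the widest gap instead set 3 strains apart from the other 56; those were LXS66, LXS32 and LXS34, at 51.9, 53.2 and 60.5. miR-5121 is a low-abundance feature, with a mean normalized signal of 13.0 that ranked 608 of 881. Its spread is among the wider ones. The SD over strains, 0.93 on the variance-stabilized scale, ranked 20 of 881 features, against a median SD of 0.30.

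**Figure D1:**
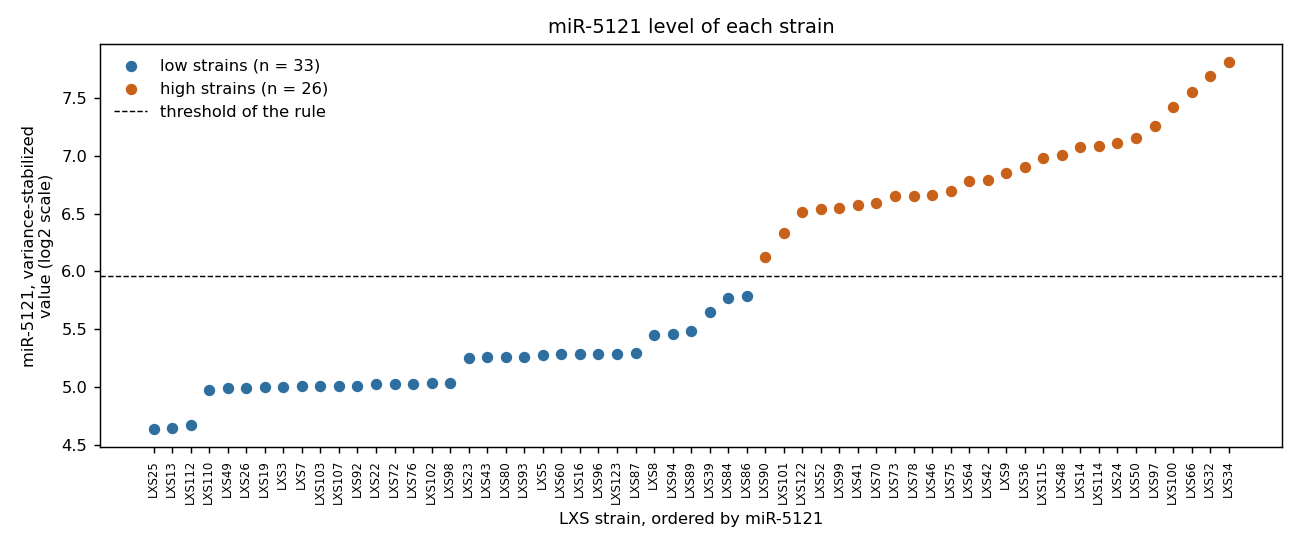
Level of miR-5121 (variance-stabilized value, log2-like scale) in each of the 59 LXS strains, ordered by level; the dashed line is the threshold of 5.96. The 33 low strains end at 5.79 and the 26 high strains begin at 6.13.

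The sequencing batches of the libraries and the tags in their names were set beside the split. The difference in batch shares between the groups was not tested. The mean share of a strain's libraries from sequencing batch 1 was 7.58% in low and 1.65% in high strains, from batch 2 it was 22.7% and 11.8%, and from batch 5 it was 27.8% and 40.0%. The level of miR-5121 was related to batch shares (limma F test, adjusted p = 0.0216 by the Benjamini-Hochberg method), as were 86.7% of the 647 features tested. On the variance-stabilized table its adjusted p was 0.0542. Both levels occurred within batches: of 15 strains with all libraries in batches 1 to 3, 10 were low and 5 high, and of 27 with all libraries in batches 4 and 5, 13 were low and 14 high. High strains of the first set had a median signal of 32.6 and those of the second 17.9; the medians of the low strains were 2.26 and 3.07. What part batch had in the level was not tested. Batch shares are a term in each fit described below unless stated.

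Some library names carry the word HIGH, MED or LOW, whose meaning the labels leave unsaid. A strain was given a tag if any of its libraries carried it, and some libraries of LXS41 and LXS80 carry none. Of 8 strains tagged HIGH 2 were high in miR-5121, of 9 tagged MED 2 were, of 10 tagged LOW 6 were, and of 32 untagged strains 16 were. The mean variance-stabilized miR-5121 was 5.73 ± 1.27 (SD, n = 8) in HIGH and 6.15 ± 1.04 (SD, n = 10) in LOW strains. HIGH minus LOW was -0.42 (SE 0.56; exact permutation test, two-sided p = 0.432), so no difference was detectable at this spread.

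The main comparison asked which other small RNAs differ between low and high strains. Of 646 other features with a mean normalized signal of at least 10, limma called 0 at an adjusted p under 0.05 (percent called 0), and the smallest adjusted p was 0.995. At an unadjusted p under 0.05 there were 9 features (1.39% of those tested), 5 higher and 4 lower in high strains. This share is below the one that a threshold of 0.05 gives on average when no feature differs. The 9 features are therefore described below as values only. The estimates were tight: the median SE was 0.09 on the log2 scale, and the median size of a difference was 0.05. For 615 of 646 features (95.2%) the 95% confidence interval lay within 1.5-fold in either direction, and for 633 within 2-fold.

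The features nearest to miR-5121 in pattern, by the size of limma's statistic, were few and their groups overlapped. The lowest p belonged to a pair of values from 1 family on chromosome 2, whose members have near-identical sequences and may share reads. The first of them, miR-466o-5p/miR-466b-5p, ran from 4.40 to 19.7 (median 10.6, normalized signal) in low strains and from 4.19 to 13.3 (median 8.85) in high strains, a log2 difference of -0.30 (SE 0.11; limma, unadjusted p = 0.0121, adjusted p = 0.995). The second, miR-466e-5p/miR-466a-5p, had nearly the same values and a difference of -0.29. Their ranges overlap over nearly all of the high strains.

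miR-150-5p, a miRNA of lymphocytes that acts on the transcription factor Myb, is the nearest measured miRNA to miR-5121: its gene starts 5.16 kb away. Its normalized signal ran from 3115 to 10706 in low strains (median 5058) and from 1973 to 9106 in high strains (median 4124). The log2 difference was -0.26 (SE 0.11, 95% confidence interval -0.48 to -0.03; limma, unadjusted p = 0.0254, adjusted p = 0.995). Within the strains of batches 1 to 3 the difference was -0.40 and within those of batches 4 and 5 it was -0.34. Its other arm, miR-150-3p, was too low for the filter, with medians of 4.81 and 4.04.

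miR-211-5p, encoded in an intron of the melastatin gene Trpm1 and related to miR-204, lies 19.1 Mb from miR-5121. It ran from 4.37 to 30.2 in low strains (median 13.8, normalized signal) and from 9.43 to 28.8 in high strains (median 15.7). The log2 difference was 0.27 (SE 0.12; limma, unadjusted p = 0.0286, adjusted p = 0.995). Some low strains lie below every high strain, but most values of the groups overlap. miR-335-3p, from the imprinted Mest locus, had a fitted difference of 0.10 while its median signal was 3534 in low and 3430 in high strains. Without batch shares its difference was -0.01. The others at an unadjusted p under 0.05 were miR-3076-3p (0.20), miR-6996-5p (0.16), miR-467b-5p (-0.15) and the unnamed feature chr18_44847 (0.16), all log2 differences of features that did not pass the adjusted test. For miR-467b-5p the medians ran the other way, at 190 in low and 193 in high strains; its difference was -0.023 without batch shares and -0.047 in the strains of batches 4 and 5.

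**Figure D2:**
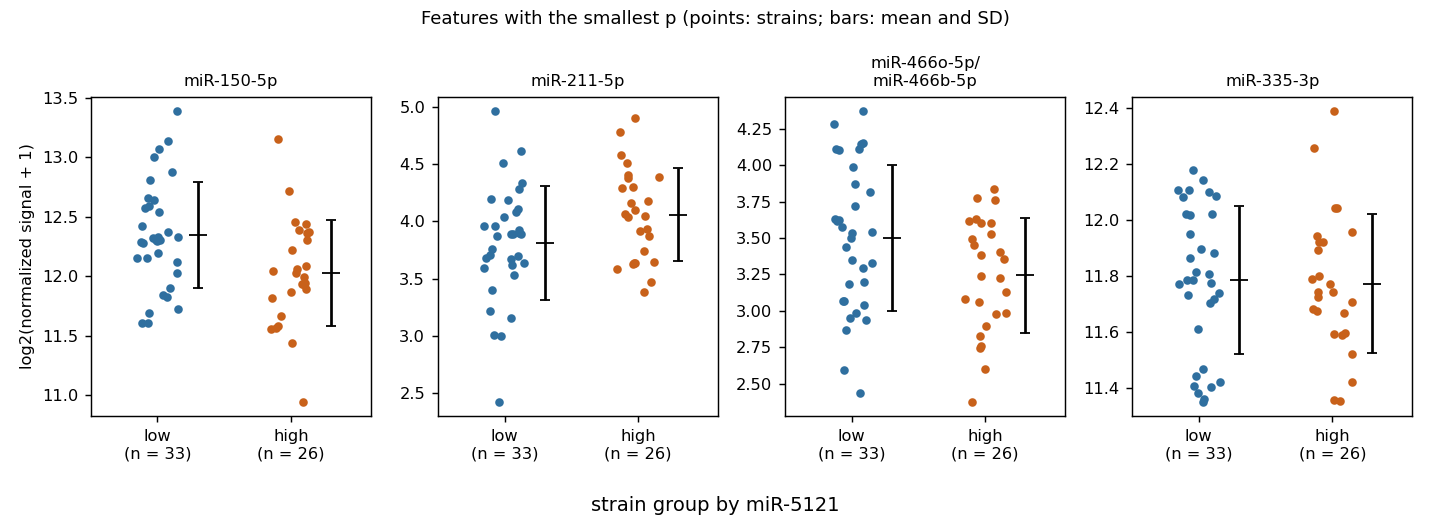
log2(normalized signal + 1) of 4 of the features with the smallest unadjusted p, one panel each; points are strains (33 low, 26 high), bars the group mean and SD. The groups overlap in each panel, and the fitted differences run from -0.30 for miR-466o-5p/miR-466b-5p to 0.27 for miR-211-5p.

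Because the groups were cut on miR-5121 and do not overlap in it, relations with it were computed within each group, for the 6 features with the smallest p, with no batch term. None of the 24 coefficients, Pearson's r and Spearman's rho of each feature in each group, passed an adjusted p of 0.05. The largest was that of miR-211-5p in the high strains (n = 26, Pearson's r = 0.54, permutation p = 0.00458, Spearman's rho = 0.52, permutation p = 0.00711), and both had an adjusted p of 0.0544. Without the 2 strains farthest from the median of miR-5121, r was 0.42 (permutation p = 0.0404). In the low strains r was -0.15 (n = 33, permutation p = 0.405). The normalized signal of miR-5121 in them was only 0.957 to 7.24 and the reads behind it are unknown. A relation within the low strains could therefore be missed. For miR-466o-5p/miR-466b-5p r was -0.50 in high strains (permutation p = 0.0101, adjusted p = 0.0544) and 0.13 in low strains; without the 2 farthest high strains it was -0.43. In the 14 high strains with all libraries in batches 4 and 5, r was 0.31 for miR-211-5p (permutation p = 0.273). For miR-466o-5p/miR-466b-5p it was 0.17 there (permutation p = 0.568), opposite in sign to that over all high strains. The 5 high strains of batches 1 to 3 are too few for a value, and 14 strains are too few to tell a weaker relation from none. The values within batches were added after the data were seen. Whether the relation differs between the groups was not tested. For miR-150-5p r was -0.20 in low and -0.07 in high strains, with permutation p-values of 0.261 and 0.752.

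Below the filter the picture was different. In the planned fit without a filter, 1 of 880 other features (0.114%) passed the adjusted test, and 18 (2.05%) had an unadjusted p under 0.05. The latter share, too, is below the one that a threshold of 0.05 gives on average when no feature differs. The feature called was miR-7057-5p, a little-studied miRNA whose gene lies in Lrrk1, a kinase gene, 21.3 Mb from miR-5121 on the same chromosome. It is named here after its values were seen. Its normalized signal ran from 0.0010 to 11.2 in low strains, with a median of 0.18, and from 0.013 to 15.9 in high strains, with a median of 5.74. On log2(normalized signal + 1) it was higher in high strains by 2.00 (SE 0.30, 95% confidence interval 1.39 to 2.60; limma, adjusted p = 7.17e-06). No fold is given, because most low strains are close to 0 and the number of reads is unknown.

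**Figure D3:**
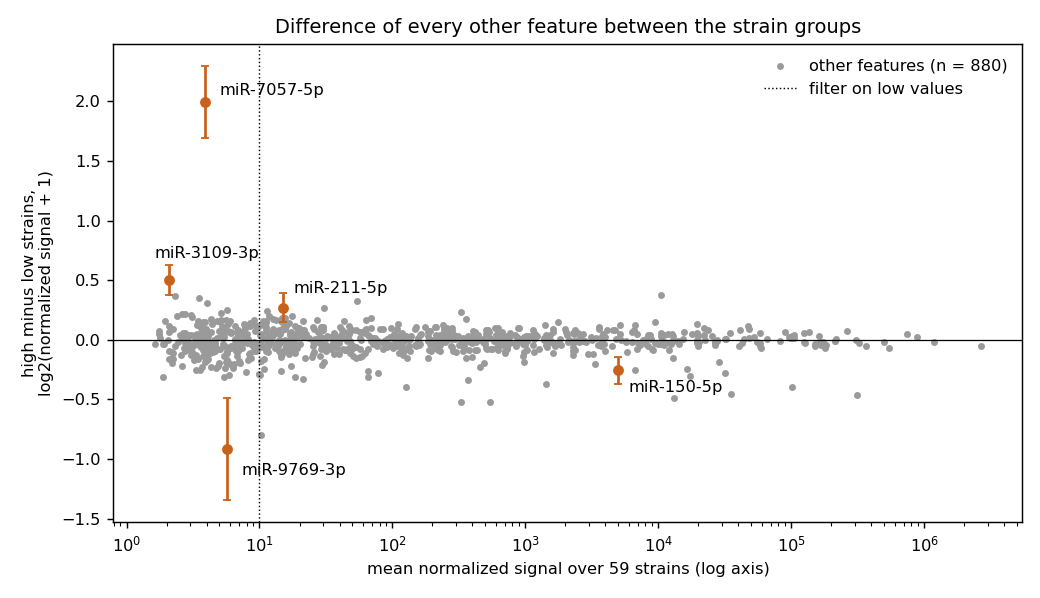
Difference between high and low strains on log2(normalized signal + 1) against the mean normalized signal (log axis) for the 880 other features in the fit without a filter; orange points are named features with their SE, and the dotted line is the filter at 10. miR-7057-5p stands at 2.00 and miR-9769-3p at -0.92, both left of the filter line.

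miR-7057-5p fell into separate levels of its own. At its widest gap on the log2 scale, 31 strains lay between 0.0010 and 1.23 and 28 between 4.06 and 15.9. Of the 26 high miR-5121 strains 23 were on its upper level, and of the 33 low strains 28 were on its lower level. The 2 features were thus on the same side in 51 of 59 strains (86.4%). The 8 exceptions were LXS19, LXS92, LXS23, LXS60 and LXS16, which were low in miR-5121 with miR-7057-5p between 5.97 and 11.2, and LXS99, LXS36 and LXS66, which were high in miR-5121 with miR-7057-5p at 0.017, 0.013 and 0.337. LXS66 is among the 3 strains with the highest miR-5121, and LXS19 is among the lower low strains.

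The difference in miR-7057-5p was also seen with each set of batches alone, in fits added after the data were seen. It was 2.65 (SE 0.49; limma, adjusted p = 0.0208) among the 15 strains of batches 1 to 3. Among the 27 strains of batches 4 and 5 it was 1.78 (SE 0.39; limma, unadjusted p = 0.000126) and did not pass the adjusted test over all features (adjusted p = 0.0554). The upper level of miR-7057-5p moved with batch, as the signal of the high miR-5121 strains did. The median of that level was 11.2 for strains of batches 1 to 3 and 5.70 for strains of batches 4 and 5. Without the 3 strains nearest the threshold on each side the difference was 1.84 (limma, adjusted p = 0.000598), and on the variance-stabilized table it was 1.34 (limma, adjusted p = 1.59e-05).

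The miRNA neighbours of miR-5121 on chromosome 7 were taken in order, 5 measured miRNA genes on each side. On the side of miR-150 they were miR-150, miR-7054, miR-9769, miR-1964 and miR-1963, and on the other side miR-7056 and members of the miR-344 cluster. None passed the adjusted test. In the fit without a filter miR-7054-5p differed by -0.08, miR-1964-3p by 0.09, miR-1963 by -0.16, miR-7056-5p by 0.08, miR-344d-3p by 0.06 and miR-344e-3p by 0.25 (all on log2(normalized signal + 1), limma, adjusted p = 0.996). miR-344d-3p, whose gene lies between those of miR-5121 and miR-7057-5p, had a normalized signal from 853 to 4908 over both groups, and its groups overlapped.

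One neighbour had a pattern of its own. miR-9769-3p, 14.6 Mb from miR-5121 on the side of miR-150, in the span of the small heat shock protein gene Hspb6, also had separate levels. It was between 0 and 0.580 in 27 strains and between 5.59 and 16.1 in 32. The direction was opposite to that of miR-5121: 23 of 33 low strains were on the upper level, with a median over low strains of 8.52, but 9 of 26 high strains, with a median over high strains of 0.22. The log2 difference was -0.92 (SE 0.43; limma without a filter, unadjusted p = 0.0365, adjusted p = 0.996). Opposite sides were seen in 40 of 59 strains (67.8%). In strains of batches 1 to 3 the difference was -0.27 (SE 0.89) and in those of batches 4 and 5 it was -1.45 (SE 0.64). In 35 strains both patterns held, with miR-7057-5p on the same side as miR-5121 and miR-9769-3p on the opposite one. Whether this is more than their separate shares of 86.4% and 67.8% would give was not tested, so it is no sign of a joint pattern.

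**Figure D4:**
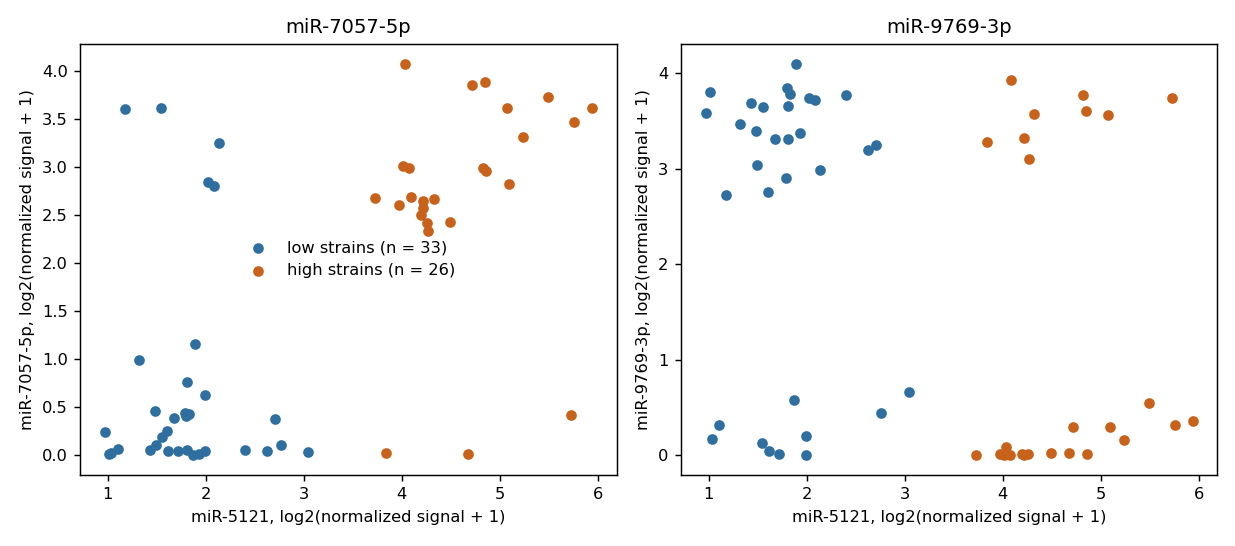
miR-7057-5p (left) and miR-9769-3p (right) against miR-5121, all as log2(normalized signal + 1); each point is a strain, blue for the 33 low and orange for the 26 high strains. miR-7057-5p is on the same side as miR-5121 in 51 strains and miR-9769-3p on the opposite side in 40.

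Across the chromosome, 50 features other than miR-5121 have a RefSeq miRNA gene on chromosome 7. Of them 4 (8.0%) had an unadjusted p under 0.05 in the fit without a filter, against 14 of the other 830 features (1.69%). The share of 1.69% is itself below the one that a threshold of 0.05 gives on average when no feature differs. The contrast of the shares is therefore not read as an excess on chromosome 7. The 4 were miR-7057-5p, miR-150-5p, miR-211-5p and miR-9769-3p, and all were among the 24 within 25 Mb of Mir5121. That bound was not planned and lies just beyond miR-7057-5p, the farthest of the 4 at 21.3 Mb, so no conclusion on distance is drawn from it. Of the 50 features 1 passed the adjusted test. The counts describe positions in RefSeq and carry no test, since miRNAs of 1 cluster are not independent. A further 4 features of chromosome 7 have no miRNA name, and the smallest unadjusted p among them was 0.280.

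**Figure D5:**
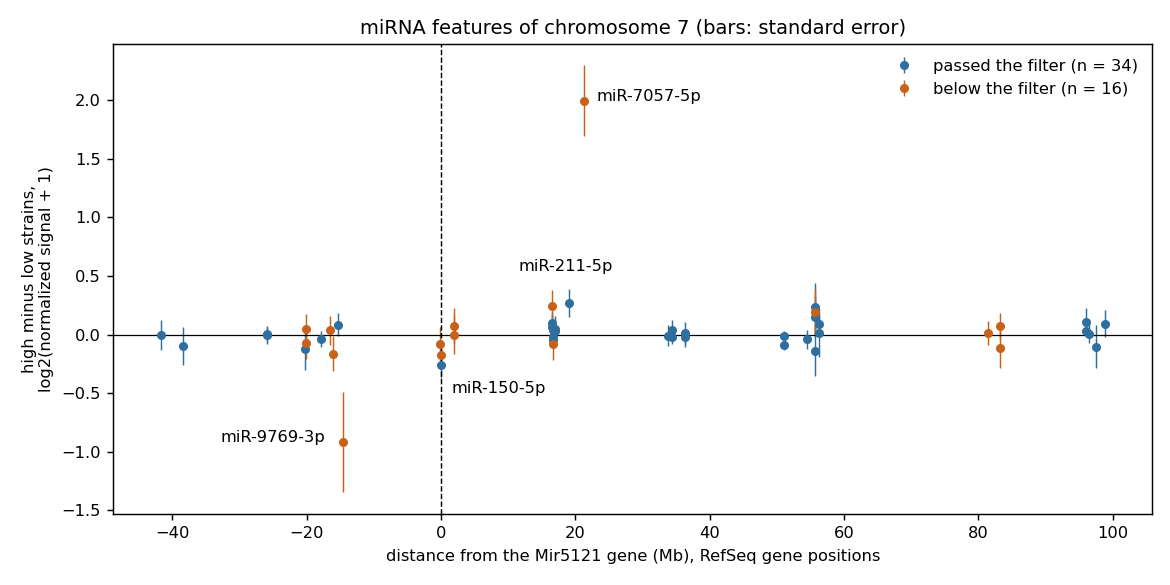
Difference between high and low strains, log2(normalized signal + 1) with SE bars, for the 50 other miRNA features of chromosome 7 against their distance from the Mir5121 gene in Mb; blue features passed the filter and orange ones did not. miR-7057-5p at 21.3 Mb is the highest point (2.00), and miR-9769-3p, 14.6 Mb to the other side, the lowest (-0.92).

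Elsewhere in the genome, the feature after miR-7057-5p in the fit without a filter was miR-3109-3p of chromosome 9, named after its values were seen. It ran from 0.196 to 4.77 (median 1.48) in low strains and from 0.862 to 6.57 (median 2.24) in high strains. Its log2 difference was 0.50 (SE 0.13; limma, adjusted p = 0.0538), which missed the threshold, and the groups overlapped over most of their range.

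Because the mature miR-5121 lies in a snoRNA, the other features whose miRNA gene overlaps a snoRNA gene were set beside it. RefSeq has 4 such miRNA genes, and 6 measured features come from them, miR-5121 included. miR-664-5p and miR-664-3p, over Snora36b, had log2 differences of -0.01 (SE 0.16) and 0.06 (SE 0.08). miR-3084-5p and miR-3084-3p, over Snora19, had 0.05 (SE 0.10) and -0.14 (SE 0.11). miR-1291, over Snora34, had -0.03 (SE 0.11). None passed the adjusted test (limma, adjusted p = 0.995), and the sign of several changed with the settings. All of these overlap snoRNAs of the box H/ACA class, which guide pseudouridylation, while Snord33 is of the box C/D class.

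MicroRNAs that mark brain cell types, regions or clusters were described by lists. The label of brain tissue was met by the neuron list (miR-124, miR-9, miR-128 and the like), whose summed normalized signal was between 541095 and 1251192 in each strain. No list held a feature that passed the test in either direction. Over all 646 features the median difference was -0.00, and 312 were higher in high strains. Of the 22 neuron features 13 were higher and 9 lower, with a median of 0.02; the smallest p was that of miR-138-1-3p (0.15, SE 0.09), followed by miR-218-1-3p (0.09); without batch shares they were 0.015 and -0.0041. The 5 oligodendrocyte features had a median of 0.04, with miR-338-3p at 0.08 and miR-219a-1-3p at 0.04. Among 8 microglia and leukocyte features the median was 0.06; miR-150-5p, above, went the other way from miR-142a-5p, a miRNA of blood-derived cells (0.09). The summed signal of this list was 52558 to 83727 in low and 58124 to 85973 in high strains.

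No blood or vessel miRNA passed the test. The 7 erythroid features had a median of 0.03, with miR-144-5p at 0.13 and miR-144-3p at 0.10, and the 6 vascular features a median of 0.02, with miR-145a-3p at 0.10 and miR-143-5p at -0.05. Choroid plexus and ciliated cell miRNAs, 9 features, had a median of 0.03; miR-211-5p was described above, and miR-34c-5p, a miRNA of ciliated cells, differed by 0.08. Among let-7 features, 19 in all, let-7d-5p (0.07) and let-7k (0.32, SE 0.25) had the smallest p. The miR-17 family clusters, 13 features, had miR-25-5p at 0.17 and miR-106b-3p at 0.06. The imprinted cluster of chromosome 12, with 77 features, had a median of 0.00, 40 higher and 37 lower, with miR-136-5p at 0.13 and miR-433-5p at 0.10.

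Lists that mark particular tissue parts were more spread between strains. All 12 features of the miR-200 and miR-183 clusters, which are expressed in olfactory and other sensory epithelia, had lower fitted values in high strains (median -0.38, from -0.53 to -0.24), but none had an unadjusted p under 0.05. Their summed signal spanned 22572 to 1285937 in low strains and 25167 to 1469390 in high strains. miR-183-3p differed by -0.52 (SE 0.46) and miR-182-5p by -0.46 (SE 0.44), and in the strains of batches 4 and 5 alone they differed by 0.39 and 0.40, opposite in direction. All 5 Hox cluster features, which mark hindbrain and spinal cord, were likewise lower without passing the test (median -0.24), with miR-10b-5p at -0.40 (SE 0.24) and miR-10a-5p at -0.28 (SE 0.19). In the strains of batches 1 to 3 these were -1.13 and -0.77, and in those of batches 4 and 5 they were -0.028 and -0.091. Within a list the features share clusters and strains, so the like signs are not separate observations. In bulk tissue fewer cells of a type and less RNA per cell cannot be told apart. Among 5 pituitary features miR-375-3p differed by 0.37 (SE 0.24; 1.16 in the strains of batches 1 to 3 and 0.084 in those of batches 4 and 5) and miR-7a-1-3p by -0.09.

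Of 28 features with no miRNA name, 11 were higher and 17 lower. chr10_26214, which itself spans low and high levels, had a median of 15 in low and 1.26 in high strains and a log2 difference of -0.80 (SE 0.44; limma, unadjusted p = 0.0770, adjusted p = 0.995). A second such feature, chr9_24385, differed by 0.24 (SE 0.32), and miR-200a-3p by -0.49 (SE 0.56).

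The mRNA table was used for 1 strain on each side, LXS41 (high, 5 profiles) and LXS80 (low, 6 profiles). The parents ILS and ISS (6 profiles each) were set beside them. Other columns also begin with a strain name, but those strains have more columns than labelled libraries and were left out by the mapping rule chosen here. The columns used are tied to a strain and not to a single library. A comparison of strain means over the other columns was possible by name but was not made. With the 1 strain a group used here the split was not tested in mRNA, and a difference is one between these strains. The numbers that end the column names of LXS41 and LXS80 have no value in common, so strain and set cannot be told apart. Of 20617 genes expressed (log2 value of at least 6 in at least 5 profiles), 2028 (9.84%) had profiles that did not overlap between the strains.

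The host gene Rpl13a had log2 values of 8.34, 8.44, 8.56, 8.35 and 8.56 in LXS41 and of 8.55, 8.17, 8.74, 8.61, 8.48 and 8.65 in LXS80. The means were 8.45 ± 0.11 (SD, n = 5) and 8.53 ± 0.20 (SD, n = 6), and the profiles overlapped. ILS was at 8.45 ± 0.15 (SD, n = 6) and ISS at 8.34 ± 0.21 (SD, n = 6). LXS41 and LXS80 stand on different sides of the miR-5121 threshold, but they are 1 strain on each side. Whether the host message is related to miR-5121 over strains was not tested.

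Of the 8 neighbouring protein-coding genes measured, 1 did not overlap between LXS41 and LXS80, where 9.84% of all expressed genes did not. Nosip, which encodes a protein that binds nitric oxide synthases, was at 8.13 ± 0.05 (SD, n = 5) in LXS41, between 8.07 and 8.19, and at 8.42 ± 0.09 (SD, n = 6) in LXS80, between 8.33 and 8.56. The parents overlapped in Nosip, with means of 8.20 in ILS and 8.33 in ISS. Rcn3, a calcium-binding protein of the secretory pathway, was at 7.08 ± 0.11 and 7.44 ± 0.14 (SD) and overlapped narrowly. Pih1d1, a partner in assembly of RNA-protein complexes including box C/D snoRNPs, was at 7.76 ± 0.07 in LXS41 and 7.62 ± 0.05 in LXS80. ILS at 7.91 ± 0.05 lay above ISS at 7.56 ± 0.09, with no overlap between the parents. The share of expressed genes without overlap between the parents was not computed, and the parents have no value of miR-5121. Fcgrt, Prrg2, Aldh16a1, Gfy and Slc17a7, the vesicular glutamate transporter of excitatory neurons, overlapped with differences from -0.07 to 0.12. Genes that span the other named miRNAs also overlapped between LXS41 and LXS80: Lrrk1 differed by -0.07, Hspb6 by -0.04 and Trpm1 by 0.13 on the log2 scale. Leaving out a profile cannot create an overlap, so Nosip stayed without one by construction. Single profiles decided some of the other overlaps. Without profile 3 of LXS80 neither Rcn3 nor Pih1d1 overlapped. Without profile 2, 3 or 4 of LXS41, Trpm1, Pih1d1 or Rcn3, respectively, did not. The share over all expressed genes was not computed with a profile left out, so these cases cannot be set against 9.84%.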

How the data were processed

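Small RNA of the brain was sequenced by the authors; the deposited miRNA tables give 1 value per LXS strain, as a normalized signal and as variance-stabilized values on a log2-like scale. The sources used here do not state scaling, aligner or build. Normalized signals summed to between 12164326 and 15093719 per strain, and read depth is unknown. The deposited mRNA values are log2 expression per gene. Of 399 columns, 23 belong to strains with no more columns than labelled libraries. The other 376 were left out by this rule, though their names also begin with a strain name. Strain groups follow the threshold on miR-5121. limma 3.58.1 (R 4.3.3; trend, robust) was run on log2(normalized signal + 1), a scale that understates changes of low features, for 647 features with a mean of at least 10, with batch shares as covariates and Benjamini-Hochberg adjustment at 0.05. It was tested on simulated data. Permutation tests used scipy 1.17.1, exact or with 100000 resamples. RefSeq genes (GRCm38.p6) were matched for 782 of 881 features. The members, lists and named-feature rule (miR-5121, the smallest p, strains at the threshold, chromosomal neighbours, and 2 members of each list) were chosen with earlier results of these data known. A library whose label mixes LXS9 and LXS90 was put in no group. Alternatives covered table, pseudocount, filter, batch term, centring, strains and grouping. P-values measure the spread between strains.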

Additional observations from a re-analysis of the deposited data

Results flagged for a closer look

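Over 51 groups of 4 to 10 values checked (miR-5121 in tagged strains and 12 genes in 4 strains), 2 had a value far from the rest of its group; chance gives about 1 in 20 groups. Rpl13a was at 8.73 in 1 ILS profile, with the next at 8.46. Gfy was at 7.64 in 1 LXS41 profile, with the next at 7.40.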

How the results depend on the processing

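No paired analysis was possible because the miRNA tables hold 1 value per strain and the replicate letters of the libraries cannot be followed into them. The 11 alternatives other than the fit without a filter called 0 features, as the main analysis did, with 3 to 59 at an unadjusted p under 0.05 and a smallest adjusted p from 0.107 to 1.00. The fit without a filter called 1, miR-7057-5p. Among 7 further fits without a filter, added after the data were seen, the count was 1 on the variance-stabilized table, without batch shares, in strains of batches 1 to 3, without LXS9 and LXS90, and without the strains nearest the threshold; it was 2 without trend and robust settings (miR-3109-3p at 0.50, adjusted p = 0.0347 by limma) and 0 in strains of batches 4 and 5, where miR-7057-5p was 1.78. The batch relation of miR-5121 was past the threshold without a filter (adjusted p = 0.0248) but not on the variance-stabilized table (0.0542). HIGH minus LOW kept its sign, at -0.65 on log2(normalized signal + 1) and -1.43 as a difference in medians. Leaving out each profile of LXS41 or LXS80 in turn, an alternative added after the data were seen, the count of genes without overlap among the 12 described ran from 1 to 3. Leaving out profiles can only keep or raise this count. The matching share over all expressed genes was not computed. No feature that passed a test changed sign. Features that passed none did so as follows, in log2 differences, and the cause was not tested. With the 56 and 3 strains on either side of the widest linear gap miR-150-5p was 0.10, miR-6996-5p -0.11, miR-664-5p 0.16, miR-664-3p -0.016, miR-3084-5p -0.10, miR-1291 0.20, chr10_26214 2.09, miR-200a-3p 1.58, miR-218-1-3p -0.28, miR-338-3p -0.035, miR-142a-5p -0.043, miR-144-3p -0.32, miR-34c-5p -0.11, miR-183-3p 1.18, miR-182-5p 1.30 and let-7d-5p -0.038. Without batch shares miR-335-3p was -0.013, miR-1964-3p -0.055, miR-344d-3p -0.063, miR-1291 0.032, miR-218-1-3p -0.0041, miR-143-5p 0.018 and miR-25-5p -0.014. In strains of batches 1 to 3 miR-1964-3p was -0.025, miR-344d-3p -0.18, miR-664-3p -0.15, miR-1291 0.069 and miR-34c-5p -0.021. On the variance-stabilized table miR-664-5p was 0.047 and miR-1291 0.0019. Without LXS9 and LXS90 miR-664-5p was 0.016. In strains of batches 4 and 5 miR-3084-3p was 0.10, chr9_24385 -0.33, miR-200a-3p 0.64, miR-142a-5p -0.011, miR-143-5p 0.026, miR-34c-5p -0.063, miR-183-3p 0.39, miR-182-5p 0.40 and miR-25-5p -0.040. Without the 3 strains nearest the threshold on each side miR-1291 was 0.052. Of low features fitted without a filter, in strains of batches 4 and 5 miR-1963 was 0.0052 and miR-7056-5p -0.081; on the variance-stabilized table miR-7056-3p was -0.0033, without batch shares miR-7056-3p was -0.11 and miR-7056-5p -0.062, in strains of batches 1 to 3 miR-7056-3p was -0.13, without the strains nearest the threshold miR-7056-3p was -0.0019. Of the relations within high strains, r turned to 0.061 for miR-150-5p on the variance-stabilized table, and without the 2 farthest strains to 0.010 for miR-335-3p and -0.0045 for chr18_44847. In strains of batches 4 and 5 (added after the data were seen), r turned to 0.17 for both miR-466 values and 0.39 for miR-335-3p in high strains, and to 0.28 for miR-211-5p, 0.53 for miR-335-3p and -0.067 for chr18_44847 in low strains. In low strains of batches 1 to 3 it turned to -0.15 for both miR-466 values, 0.43 for miR-150-5p, 0.14 for miR-335-3p and -0.36 for chr18_44847. None of the relations passed the adjusted test under any of these settings. No read counts were available to set a detection limit for low features such as miR-7057-5p and miR-9769-3p.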
